A study of Homo sapiens with 2 samples.

Results

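The genes of the proteasome were followed here in PHF8 ChIP-seq peak tables from RKO, an established cell line derived from a human colon carcinoma. The cells had been given either an empty vector (Vec) or an APOC2 overexpression plasmid (APOC2), and both were precipitated with an antibody to PHF8, a histone demethylase. The labels give neither the time after transfection nor the level of APOC2 reached. There was 1 library of each condition, with no control library among the tables, so every comparison is between these libraries and none could be set against replicate spread. There were 4015 peaks with Vec and 8928 with APOC2. By its title, the study asked about an increase of PHF8 binding by APOC2. Members were the protein-coding autosomal RefSeq genes whose whole symbol is PSMA, PSMB, PSMC, PSMD, PSME or PSMG followed by digits. This gave 46 genes of 19126 protein-coding autosomal genes. PSMD10, on the X chromosome, was therefore left out and had no peak in either table. PSMC3IP and PSME3IP1 share the prefix but do not encode subunits, and were left out as well.

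The proteasome degrades proteins tagged with ubiquitin. Its barrel-shaped core particle is built of alpha rings (PSMA genes), which gate the entrance, and beta rings (PSMB genes), which hold the proteolytic sites. The regulatory particle caps the barrel: its base carries ATPases (PSMC genes) that unfold substrates, and its lid (PSMD genes) removes ubiquitin. PSME genes encode alternative activators of the barrel, and PSMG genes, PSMD5 and PSMD9 encode chaperones of assembly. PHF8 binds trimethylated histone H3 through its PHD finger at active promoters and removes repressive methyl marks. A gene was called occupied when a peak had its midpoint no more than 1 kb from the start or the end of its RefSeq span (GRCh38.p14), here called gene ends.

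Peaks at regulatory particle genes were more frequent than over all genes in both libraries, while the core particle stayed near the level of all genes. In the APOC2 library 13 of 17 regulatory particle genes (76.5%) and 5 of 19 core particle genes (26.3%) were occupied, against 24.7% of all protein-coding autosomal genes. In the Vec library 4 of 17 regulatory particle genes (23.5%) and 1 of 19 core particle genes (5.26%) were occupied, against 6.19% of all genes. When both tables were reduced to the same number of peaks by rank, 8 of 17 regulatory and 4 of 19 core particle genes were occupied with APOC2. The share of all genes was then 13.0%. The contrast between the particles was thus smaller, while the shares of both particles lay above that of all genes. Over the 46 members, 23 were occupied with APOC2 and 6 with Vec. All 6 members occupied with Vec were also occupied with APOC2, as were 1162 of the 1183 coding genes occupied with Vec. Over all genes, 6.08% were occupied in both libraries. The other 17 were occupied with APOC2 only (background 18.6%), and none with Vec only (background 0.11%).

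**Figure D1:**
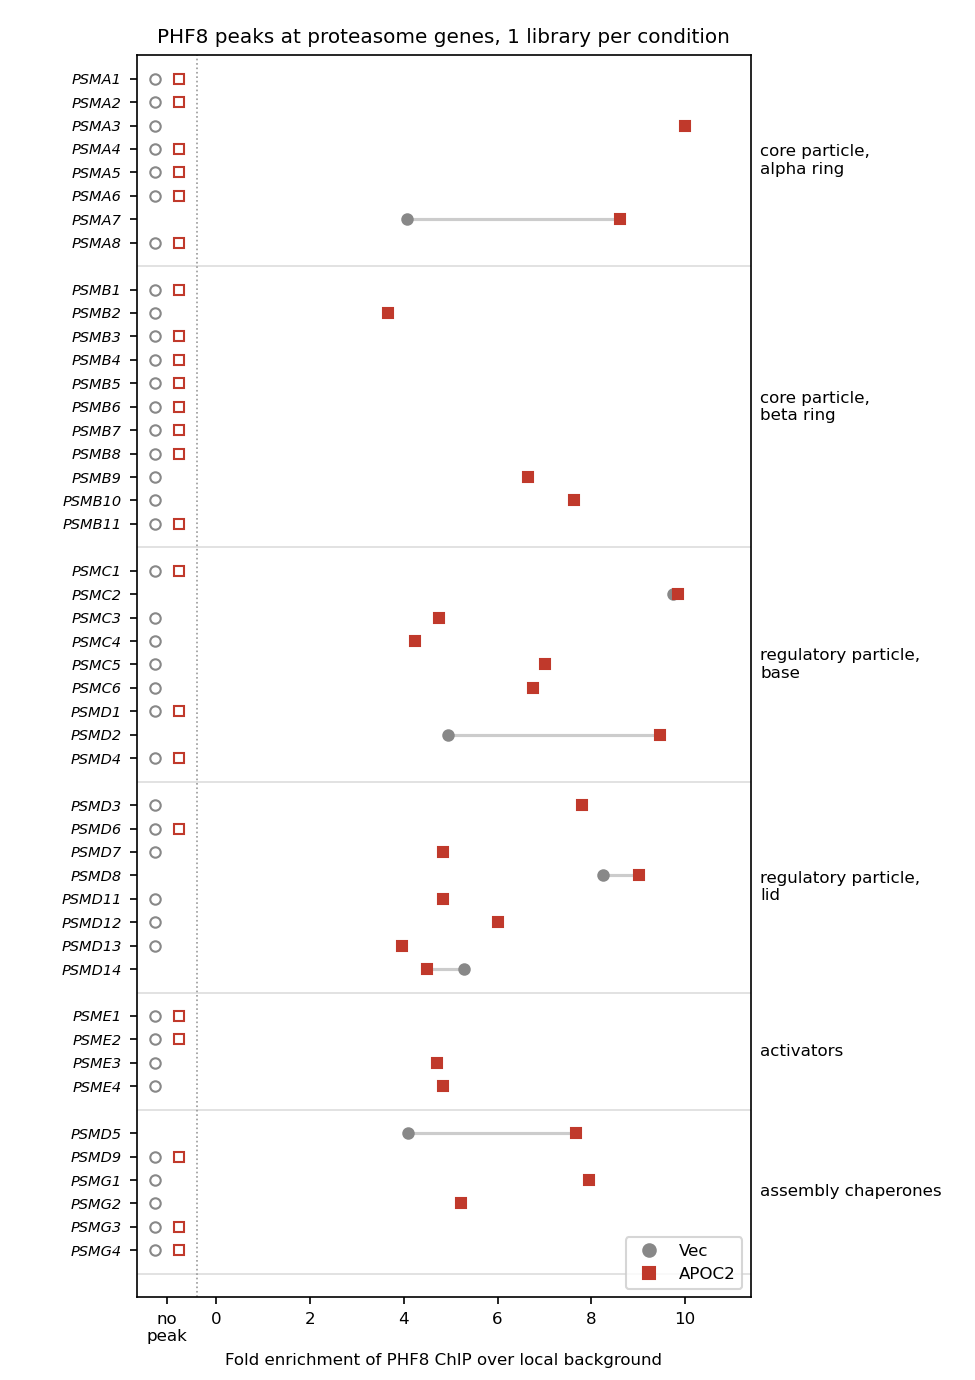
Fold enrichment of the strongest PHF8 peak at each of the 46 proteasome genes, in Vec (grey circles) and APOC2 (red squares), 1 library each; open symbols to the left of the dotted line mark genes without a peak. Most filled squares lie in the regulatory particle panels, and 6 genes have a filled symbol in both libraries.

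Of 5 motifs searched in the promoters, the ETS core had the largest difference in share between the particles. The ETS core CCGGAA, the letters recognised by ETS transcription factors, was searched on both strands (TTCCGG on the other) of the 300 bases from 250 before to 50 after the transcription start. It was found at 13 of 16 regulatory particle genes and at 1 of 15 core particle genes with a RefSeq promoter entry, against 23.1% of 15101 promoters. The stretches before the start are shown for 5 regulatory particle genes with a match that were occupied with APOC2, and for 3 core particle genes without one, of which PSMA3 and PSMB2 were occupied and PSMB4 was not. For genes with several listed starts, which included 4 core and 2 regulatory particle genes, the first was used. Over all listed starts the match was found at 3 core (PSMA6, PSMA8 and PSMB5) and 13 regulatory particle genes, against 26.9% of all genes. The stretches are RefSeq sequences of GRCh38.p14, written 5′ to 3′ on the gene's strand, and capitals mark the match on either strand. They are PSMC3 at chr11:47426440-47426689 (minus strand), PSMC6 at chr14:52706950-52707199 (plus strand), PSMD2 at chr3:184298991-184299240 (plus strand) and PSMD8 at chr19:38374321-38374570 (plus strand). The others are PSMD11 at chr17:32444260-32444509 (plus strand), PSMA3 at chr14:58244593-58244842 (plus strand), PSMB2 at chr1:35641527-35641776 (minus strand) and PSMB4 at chr1:151399323-151399572 (plus strand).
PSMC3: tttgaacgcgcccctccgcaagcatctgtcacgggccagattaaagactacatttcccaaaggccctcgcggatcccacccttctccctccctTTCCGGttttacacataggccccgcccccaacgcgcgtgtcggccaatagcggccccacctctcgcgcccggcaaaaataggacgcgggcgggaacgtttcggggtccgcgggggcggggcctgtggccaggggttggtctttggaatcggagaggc
PSMC6: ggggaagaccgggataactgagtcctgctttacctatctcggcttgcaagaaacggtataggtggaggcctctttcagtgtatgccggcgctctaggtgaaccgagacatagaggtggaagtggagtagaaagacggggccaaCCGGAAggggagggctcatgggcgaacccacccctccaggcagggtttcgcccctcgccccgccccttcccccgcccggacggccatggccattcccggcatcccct
PSMD2: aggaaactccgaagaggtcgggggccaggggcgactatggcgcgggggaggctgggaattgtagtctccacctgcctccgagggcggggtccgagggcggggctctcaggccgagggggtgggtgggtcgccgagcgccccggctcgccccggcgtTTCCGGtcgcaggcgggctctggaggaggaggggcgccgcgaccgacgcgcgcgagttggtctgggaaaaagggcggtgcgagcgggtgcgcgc
PSMD8: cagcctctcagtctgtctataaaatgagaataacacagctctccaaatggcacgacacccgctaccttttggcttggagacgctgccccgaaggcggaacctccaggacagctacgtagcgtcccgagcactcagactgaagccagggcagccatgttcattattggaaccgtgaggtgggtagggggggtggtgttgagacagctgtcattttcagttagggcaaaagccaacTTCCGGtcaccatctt
PSMD11: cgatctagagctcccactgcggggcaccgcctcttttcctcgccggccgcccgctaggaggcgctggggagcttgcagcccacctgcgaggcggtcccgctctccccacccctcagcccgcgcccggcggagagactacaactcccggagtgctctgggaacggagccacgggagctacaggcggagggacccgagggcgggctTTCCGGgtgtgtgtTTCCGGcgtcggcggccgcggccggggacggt
PSMA3: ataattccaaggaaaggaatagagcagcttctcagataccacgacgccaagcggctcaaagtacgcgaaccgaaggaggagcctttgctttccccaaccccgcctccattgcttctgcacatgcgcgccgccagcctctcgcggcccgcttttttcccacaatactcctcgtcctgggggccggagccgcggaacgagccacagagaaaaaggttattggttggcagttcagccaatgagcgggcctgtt
PSMB2: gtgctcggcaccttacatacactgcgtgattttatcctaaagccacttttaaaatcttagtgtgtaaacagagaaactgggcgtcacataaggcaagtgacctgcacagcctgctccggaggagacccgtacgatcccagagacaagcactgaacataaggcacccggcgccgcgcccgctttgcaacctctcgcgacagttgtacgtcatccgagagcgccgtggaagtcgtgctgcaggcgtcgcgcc
PSMB4: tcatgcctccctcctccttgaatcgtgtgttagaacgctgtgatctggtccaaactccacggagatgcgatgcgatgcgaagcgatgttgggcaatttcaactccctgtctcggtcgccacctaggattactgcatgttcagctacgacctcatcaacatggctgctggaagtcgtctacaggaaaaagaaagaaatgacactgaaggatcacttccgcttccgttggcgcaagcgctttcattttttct

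In these stretches the first base of the match lay 157 bases before the start at PSMC3, 107 at PSMC6, 94 at PSMD2 and 16 at PSMD8. PSMD11 had matches 46 and 32 bases before its start. Over all regulatory particle genes the matches ranged from 236 bases before the start (PSMD13) to 11 bases after it (PSMC1). Of the matches at PSMD7 and PSMD14, each began within 4 bases before the start and ran across it.

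**Figure D2:**
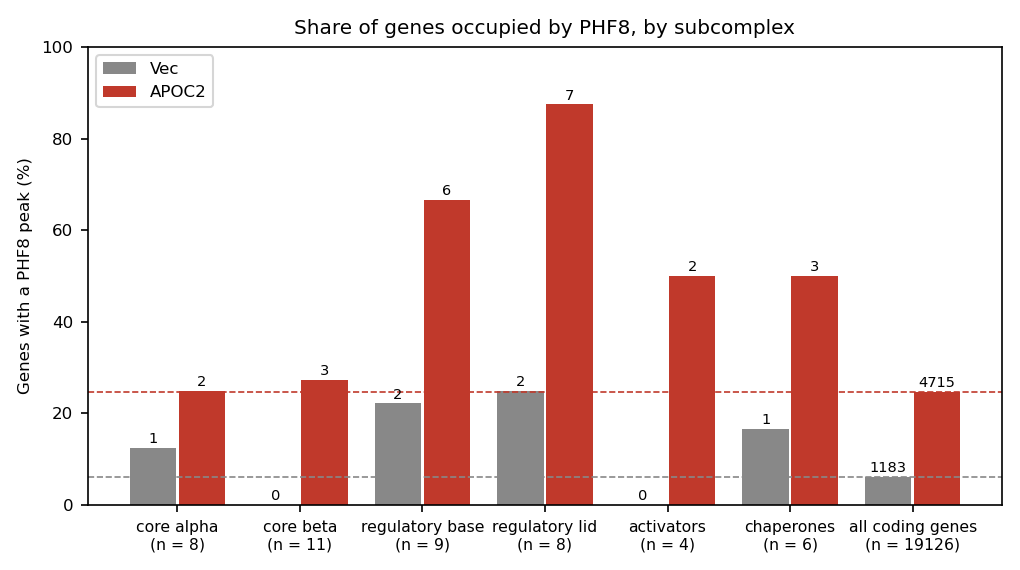
Share of genes with a PHF8 peak within 1 kb of a gene end (vertical axis, %), by subcomplex, in Vec (grey) and APOC2 (red), with the number of occupied genes above each bar and all coding genes at the right and as dashed lines. The red bars of the regulatory base and lid stand at 66.7% and 87.5%, those of the core rings at 25.0% and 27.3%.

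In the alpha ring, 2 of 8 genes were occupied with APOC2 and 1 with Vec, against 24.7% and 6.19% of all genes. PSMA7 was the core particle gene with peaks in both libraries. Its Vec peak (chr20:62142974-62143356) had a pileup of 35.6 fragments at the summit, in units scaled to the control, which was 4.07 times the local background as fold enrichment, at a -log10 q of 8.67. Its APOC2 peak (chr20:62142891-62143449) had a pileup of 53, a -log10 q of 30.3 and a fold enrichment of 8.62. The signal was thus higher with APOC2 by every one of these values, although the same peaks lay within 1 kb of an end of SS18L1 as well. PSMA3 had no Vec peak, and its APOC2 peak at chr14:58244822-58245161 had the highest fold enrichment of all members, 10.0, with a pileup of 23 and a -log10 q of 16.9. A weaker APOC2 peak lay 328 bp upstream of the PSMA3 start, with a fold enrichment of 5.73. PSMA1, PSMA2, PSMA4, PSMA5, PSMA6 and the testis-restricted PSMA8 had none.

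In the beta ring, 3 of 11 genes were occupied, all with APOC2 only (18.6% of all genes). The genes of the constitutive proteolytic subunits, PSMB5, PSMB6 and PSMB7, had no peak in either library. Among their interferon-induced counterparts, PSMB10 had an APOC2 peak 827 bp into the gene (chr16:67935891-67936155) with a pileup of 33, a -log10 q of 17.7 and a fold enrichment of 7.64. PSMB9 had one 622 bp upstream (chr6:32853408-32853732) with a pileup of 37, a -log10 q of 17.1 and a fold enrichment of 6.65. That peak also lay within 1 kb of the start or end of TAP1, the antigen peptide transporter gene next to it. PSMB8 had no peak. PSMB2, a structural beta subunit, had the lowest fold enrichment of the occupied members, 3.66, at chr1:35641300-35641795, with a pileup of 24 and a -log10 q of 5.20. PSMB1, PSMB3, PSMB4 and the thymus-restricted PSMB11 had none.

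In the base of the regulatory particle, 6 of 9 genes were occupied with APOC2, among them 5 of the 6 ATPase genes, and 2 with Vec. The shares over all genes were 24.7% and 6.19%. PSMC2 had nearly the same enrichment in both libraries. Fold enrichment there was 9.74 with Vec (chr7:103347660-103348067, pileup 29.7, -log10 q 19.2) and 9.85 with APOC2 (chr7:103347438-103348135, pileup 26, -log10 q 18.3). Both peaks lay near an end of PMPCB too. PSMD2, a scaffold of the base, had a fold enrichment of 4.95 with Vec (chr3:184299260-184299640, pileup 28.7, -log10 q 8.97) and 9.47 with APOC2 (chr3:184299230-184299627, pileup 40, -log10 q 25.3). Unlike PSMC2, its enrichment differed between the libraries by nearly as large a factor as at PSMA7.

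The other ATPase genes with a peak had one with APOC2 only. Fold enrichment was 7.01 at PSMC5 (chr17:63827450-63827694, pileup 41, -log10 q 19.9) and 6.75 at PSMC6 (chr14:52706806-52707468, pileup 18, -log10 q 9.34). It was 4.75 at PSMC3 (chr11:47426081-47426324, pileup 21, -log10 q 6.82) and 4.25 at PSMC4 (chr19:39971152-39971403, pileup 28, -log10 q 7.72). The order by fold enrichment was not that by pileup, since the local background was 4.99 fragments at PSMC5 and 1.81 at PSMC6. The ATPase gene PSMC1, the scaffold gene PSMD1 and PSMD4, which encodes a ubiquitin receptor, had no peak in either library.

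In the lid, 7 of 8 genes were occupied with APOC2, all but PSMD6, and 2 with Vec, against 24.7% and 6.19% of all genes. PSMD14 encodes the deubiquitinase that cleaves ubiquitin chains from substrates. It had a fold enrichment of 5.28 with Vec (chr2:161308520-161308753, pileup 30.7, -log10 q 10.5) and 4.50 with APOC2 (chr2:161308490-161308714, pileup 26, -log10 q 7.79), and was the member of the 6 with the lower fold enrichment in the APOC2 library. At PSMD8 the values were 8.25 with Vec (chr19:38374779-38375027, pileup 25.7, -log10 q 14.4) and 9.01 with APOC2 (chr19:38374779-38375074, pileup 26, -log10 q 16.8). Both lid genes with a Vec peak therefore had similar enrichment in both libraries.

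The remaining occupied lid genes, which encode scaffold subunits, had APOC2 peaks only. PSMD3 had a fold enrichment of 7.81 (chr17:39980826-39981161, pileup 38, -log10 q 20.5) and PSMD12 had 6.01 (chr17:67366291-67366598, pileup 35, -log10 q 14.7). PSMD7 (chr16:74296818-74297084) and PSMD11 (chr17:32444511-32444744) had the same summit values, a pileup of 32 over a background of 5.83, a fold enrichment of 4.83 and, for both, a -log10 q of 10.5. PSMD13 had the lowest fold enrichment of the lid, 3.97, at a peak 745 bp upstream of its start (chr11:236101-236361), which also lay near an end of SIRT3.

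Activators and chaperones were occupied in equal shares with APOC2, at 2 of 4 and 3 of 6 genes, against 24.7% of all genes. Fold enrichment was 4.83 at PSME4 (chr2:53970581-53971374, pileup 32, -log10 q 10.5) and 4.70 at PSME3 (chr17:42833432-42833680, pileup 35, -log10 q 11.1), while PSME1 and PSME2, which form the interferon-induced activator, had no peak. PSMD5 had peaks in both libraries, with a fold enrichment of 4.10 with Vec (chr9:120842602-120842912, pileup 27.7, -log10 q 6.55) and 7.67 with APOC2 (chr9:120842559-120842972, pileup 45, -log10 q 23.6). Of the PSMG genes, PSMG1 had an APOC2 peak with a fold enrichment of 7.94 (chr21:39183175-39183456, pileup 30, -log10 q 16.8), near an end of BRWD1, and PSMG3 and PSMG4 had none, nor did PSMD9. A second, weaker APOC2 peak was also assigned to PSMD5 (fold enrichment 3.22) and to PSMG1 (4.0).

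PSMG2 showed how the distance limit can set a call. Its APOC2 peak (chr18:12657117-12658676, fold enrichment 5.23, pileup 26, -log10 q 9.47), the longest of the member peaks with 1560 bp, was centred 842 bp upstream of the start and so counted. A Vec peak inside it (chr18:12657309-12657953) had a fold enrichment of 6.22 and a pileup of 13.9, but was centred 1107 bp from the start and did not count. On the other side of the limit, the APOC2 peak nearest to PSME2 was centred 1014 bp from the gene and that nearest to PSMA5 was 1273 bp away. With a limit of 3 kb, PSMA5, PSME1 and PSME2 were gained, which made 26 members with APOC2 (27.1% of all genes) and, with PSMG2, 7 with Vec (6.84% of all genes). For 15 of the 23 unoccupied members the nearest APOC2 peak was over 10 kb from either gene end. The 4 unoccupied regulatory particle genes were among them, at 64.8 kb (PSMD4), 97.7 kb (PSMD6), 121 kb (PSMC1) and 192 kb (PSMD1).

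The 6 members with peaks in both libraries were then compared by ratio. The peaks overlapped at each of them. On the log2 scale, the fold enrichment with APOC2 divided by that with Vec gave 1.08 at PSMA7, 0.94 at PSMD2, 0.90 at PSMD5, 0.13 at PSMD8, 0.02 at PSMC2 and -0.23 at PSMD14. The median of this ratio was 0.516, beside 0.525 over the 1162 coding genes occupied in both libraries. The ratio was above 0 at 5 of the 6 members, where the background was 89.6%, and fold enrichment was at least 1.5 times higher at 3 of them, where it was 43.5%. No member lay near this median: 3 had ratios from 0.90 to 1.08 and 3 from -0.23 to 0.13. Without PSMD5, or with PSMG2 added by the limit of 3 kb, or without PSMA7, it was 0.127. It was 0.072 over the 2 members left at a fold enrichment of at least 5 and 0.904 over the 5 left with equal peak numbers.

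Fold enrichment also depends on the local background, so the summit pileups were compared directly. Spacing of the values gave the APOC2 library 0.824 times the depth of the Vec library, if both were called against the same control. The spacing fitted 100% of the Vec pileups but 66.6% of the APOC2 backgrounds used, so the estimate is approximate. After scaling to depth, the log2 ratio of pileup was 0.96 (95% exact Clopper-Pearson interval 0.25 to 1.70) at PSMD5, 0.84 (0.20 to 1.49) at PSMA7 and 0.74 (0.02 to 1.49) at PSMD2. It was 0.28 (-0.56 to 1.12) at PSMD8, 0.07 (-0.74 to 0.88) at PSMC2 and 0.03 (-0.78 to 0.83) at PSMD14, so that the interval excluded 0 at 3 members and covered it at 3. All 6 ratios were above 0, where the background was 92.3%, and the sign at PSMD14 was thus the opposite of that in fold enrichment. In the raw pileups, the log2 ratio was 0.70 at PSMD5, 0.573 at PSMA7, 0.479 at PSMD2 and 0.015 at PSMD8. It was negative at PSMC2 (-0.19) and PSMD14 (-0.24). Intervals were computed for the depth-scaled ratios only, so whether they exclude 0 rests on the depth estimate. The intervals cover counting error only, and fragments amplified by PCR are not independent of each other.

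Among the members with APOC2 peaks, fold enrichment ranged from 3.66 to 10.0 with a median of 6.65, while all coding genes occupied with APOC2 had a median of 5.41. In the Vec library the 6 members had a median of 5.11 beside 5.18. A fold enrichment of at least 5 with APOC2 was reached by 14 of the 46 members, against a background of 14.6%. By particle these were 7 of the 13 occupied regulatory and 4 of the 5 occupied core particle genes. Over all coding genes it was 2787 of the 4715 occupied with APOC2. When the peak itself had to cover a gene end, 5 regulatory and 3 core particle genes were occupied with APOC2, against 8.87% of all genes, and no member was occupied with Vec, against 1.52%.

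Most member peaks lay just inside the gene. All 22 members occupied with APOC2 that had a start in the promoter table had the peak within 1 kb of that start, and PSMA7 had no entry there. Of these 22 members, 17 had the midpoint of the strongest peak downstream of the start, where the background was 70.0%. It lay between 100 and 200 bp downstream at 13 of them, beside 37.0% of 3565 coding genes. Among the regulatory particle genes this held for 9 of 13, with PSMC6, PSMD13, PSMC3 and PSMD8 as the others, and among the core particle genes for 1 of 4, PSMA3. In the Vec library all 5 such members had the midpoint downstream, between 165 and 332 bp, where the background was 73.6%. With these positions, 9 of the 22 APOC2 peaks and none of the 5 Vec peaks covered the gene end at the start. The share among coding genes with a peak near the start was not computed. Of all coding genes, 8.87% with APOC2 and 1.52% with Vec had a peak covering either gene end.

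**Figure D3:**
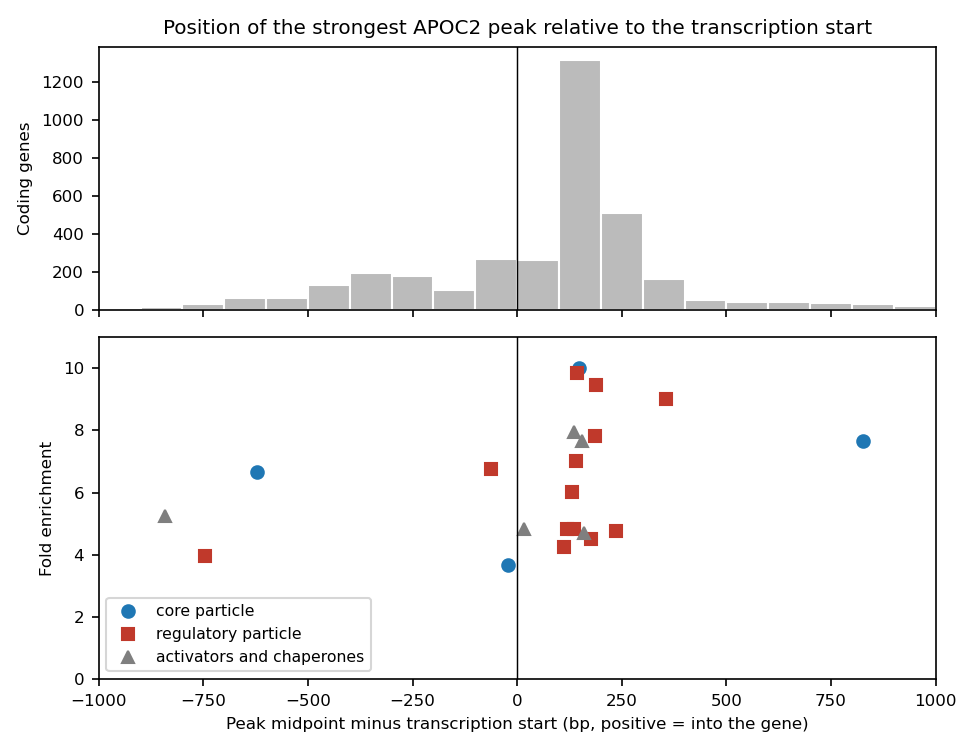
Midpoint of the strongest APOC2 peak relative to the transcription start (horizontal axis, bp, positive into the gene), as numbers of coding genes per 100 bp (top) and for 22 proteasome genes against fold enrichment (bottom), by particle. Points crowd between 100 and 200 bp, where the histogram of all genes also has its peak.

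The remaining promoter features separated the particles less than the ETS core did. The CAAT box (CCAAT) was found at 8 of 15 core and 8 of 16 regulatory particle genes, against 36.0% of all promoters. The GC box (GGGCGG) was found at 9 and 12, against 58.9%. The core of the antioxidant response element (TGACNNNGC), bound by NFE2L1 and NFE2L2, was found at 2 and 4, against 14.2%. Over the 40 members with a promoter entry it was found at 13 (32.5%), among them 3 of 4 activators and 4 of 5 chaperones. The palindrome of nuclear respiratory factor was found at 1 core (PSMA4) and 0 regulatory particle genes, against 1.77%. All were searched on both strands, and matches to different motifs could share bases. Over all genes, 36.8% of promoters with the ETS core and 21.8% of those without it were occupied with APOC2. Within the regulatory particle 11 of 13 genes with the ETS core were occupied, as were 2 of 3 without it (PSMC4 and PSMD3). In the core particle the gene with it, PSMA8, was not occupied, and 4 of 14 without it were. A match describes letters in the window and does not show that a factor binds there.

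**Figure D4:**
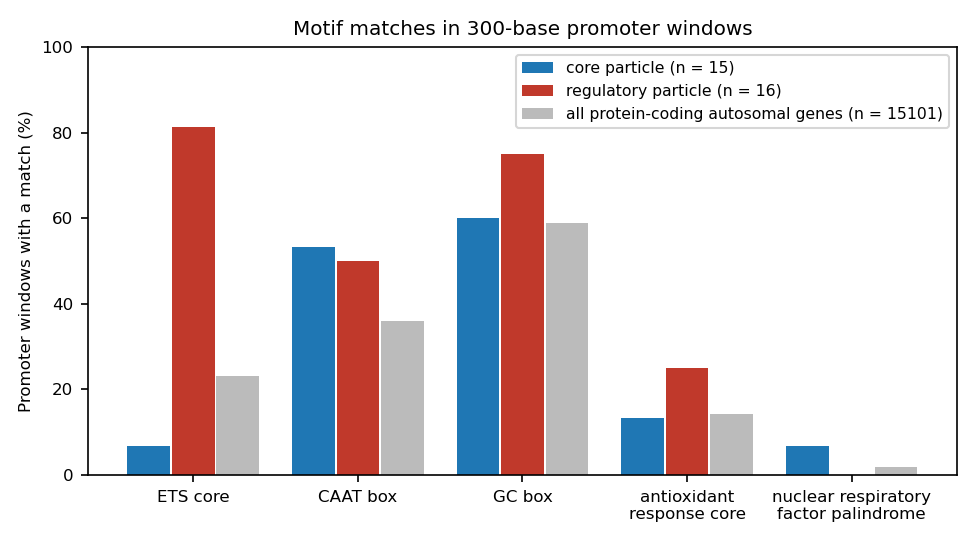
Share of 300-base promoter windows with at least 1 match (vertical axis, %) for 5 motifs, in core particle genes (blue), regulatory particle genes (red) and all coding genes (grey). For the ETS core the bars stand at 6.67%, 81.2% and 23.1%, while the other motifs differ less between the particles.

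CpG dinucleotides, which are dense at active promoters, moved with occupancy in the whole table. When all promoters were ranked by their CpG number and divided into 4 classes of similar size, occupancy with APOC2 rose from 4.37% in the lowest (0 to 8 CpG) over 22.7% (9 to 22) and 33.9% (23 to 32) to 41.1% in the highest (33 to 69). The median CpG number was 19 in core and 23 in regulatory particle genes. In the class of 9 to 22 CpG, 1 of 9 core and 6 of 7 regulatory particle genes were occupied, and in that of 23 to 32 CpG, 2 of 4 and 3 of 5 were. The highest class held 3 regulatory particle genes, all occupied, and no core particle gene. PSMC2, with 7 CpG and peaks in both libraries, was the regulatory particle gene in the lowest class, which also held 2 core particle genes, PSMB10 (occupied with APOC2) and PSMB11 (not occupied). The part of CpG number and of the ETS core in the contrast between the particles was not tested.

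Some peaks could belong to a neighbour, and some chromosomes had more peaks than others. Of the strongest member peaks, 9 of 23 with APOC2 and 3 of 6 with Vec also lay within 1 kb of an end of another RefSeq gene. The neighbours not named above were FTSJ3 at PSMC5, ACYP2 at PSME4, CUTALP at PSMD5 and LOC124904720 at PSMC4. Without peaks near another gene, 14 members were occupied with APOC2 and 3 with Vec. Over all coding genes the share fell from 24.7% to 12.4% with APOC2 and from 6.19% to 2.99% with Vec. By particle, 9 regulatory and 3 core particle genes were then occupied with APOC2. PSMD5 lay on chromosome 9, where 21.1% of all coding genes were occupied with Vec, and PSMG2 on chromosome 18, where 14.1% were. The chromosomes of the 5 members other than PSMD5 that were occupied with Vec had between 2.55% and 8.19%. The part of the chromosome in these calls was not tested.

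Genes that work with the proteasome but carry other symbols were examined as a fixed list of 31 autosomal coding genes. With APOC2 17 (54.8%) were occupied, against 24.7% of all genes, and with Vec 7 (22.6%), against 6.19%. Of these, 6 were occupied in both. Among them were the regulatory particle genes whose symbols fall outside the rule. SEM1, a small lid subunit, had a fold enrichment of 5.94 with Vec and 10.7 with APOC2, and ADRM1, a ubiquitin receptor of the base, had 3.45 and 6.81. Both were higher with APOC2, and with them 15 of 19 regulatory particle genes were occupied.

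The other genes of the list with peaks in both libraries were USP14, NPLOC4, UBQLN4 and TXNL1. The deubiquitinase gene USP14 had a fold enrichment of 5.68 with Vec and 8.60 with APOC2, and NPLOC4, a cofactor of the unfoldase VCP, had 3.15 and 6.12. UBQLN4, a shuttle for ubiquitinated proteins, had 3.11 and 5.01, and TXNL1, a thioredoxin-like protein bound to the proteasome, had 5.54 and 5.93. Of these, TXNL1 had the smallest ratio, and its depth-scaled pileup was lower with APOC2 (log2 ratio -0.15). The highest fold enrichments with APOC2 only were 9.44 at NGLY1, 7.34 at ECPAS and 6.72 at RAD23B. ECPAS and RAD23B lay on chromosome 9, where 39.6% of all coding genes were occupied with APOC2. USP14 and TXNL1 lay on chromosome 18, where 14.1% were occupied with Vec. The part of the chromosome in these calls was not tested. PAAF1, which encodes a negative regulator of the regulatory particle, had a Vec peak (6.0) and no APOC2 peak. NFE2L1, which activates transcription of proteasome genes, was occupied with APOC2 only (4.39). Peaks at NGLY1, NPLOC4 and USP14 also lay within 1 kb of an end of OXSM, TSPAN10 and LOC105371951, in that order. That at PAAF1 also lay near an end of COA4, and that at NFE2L1 near ends of COPZ2 and NFE2L1-DT.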

How the data were processed

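PHF8 ChIP-seq of RKO cells gave 1 peak table per library, so peaks had been called per sample. Per the submitters' processing notes, Bowtie2 2.2.9, MACS2 2.0 and HOMER were named with build hg38. Thresholds, control and duplicate handling were not given in the sources used here. The deposited tables hold a summit pileup signal, a fold enrichment ratio over local background with 1 added to both terms, and 2 columns of -log10 p and -log10 q whose names a spreadsheet had replaced. The highest q-values were 0.0266 (Vec) and 0.045 (APOC2). There were 4015 Vec and 8928 APOC2 peaks, and read totals were unknown. Relative depth came from the spacing of Vec pileups (0.9895) and APOC2 backgrounds (0.832), and rests on a shared control. All Vec pileups lay within 0.006 of a multiple of their spacing. Of the APOC2 backgrounds above 1.5, 66.6% lay within 0.02 of a multiple of theirs.

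Genes, starts and promoters were those of RefSeq GRCh38.p14; 40 of 46 members had a promoter entry, and the first listed was used. The strongest peak by fold enrichment stood for a gene. Exons were not used. Counts are set beside the share over all coding genes, and no test between conditions was possible with 1 library each. Peak positions give no expression, so cell markers were not checked. Values were computed with Python 3.11.15 and pandas 2.3.3, and the assignment code was tested on simulated peaks. Full values are given for members occupied in both tables and for up to 4 per subcomplex in 1 table only, by fold enrichment; for the pathway list, for genes occupied in both and the 3 highest with APOC2 only. PAAF1, NFE2L1 and PSMD13 were named after their values were seen. The members, lists and motifs were chosen with earlier results of these data known.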

Additional observations from a re-analysis of the deposited data

How the results depend on the processing

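With 1 library per condition no library could be left out. No paired analysis was possible because the labels carry no replicate numbers and each group has 1 sample. Of 90 recomputed values, 30 moved by over 1.5 times and 60 by less or not at all. None reversed. Except where a reason is named, the cause was not tested. With a fold enrichment of at least 5, there were 3 members occupied with Vec (3.35% of all coding genes), 14 with APOC2 (14.6%) and 2 in both. At that limit 7 regulatory particle genes were occupied with APOC2 and 0 core particle genes with Vec. With equal numbers of top-ranked peaks, 11 members were occupied with APOC2 only and 8 regulatory particle genes with APOC2. The share of all coding genes occupied with APOC2 was then 13.0%, and that with APOC2 only was not computed. When peaks had to overlap a gene end, 0 members were occupied with Vec or in both, and 10 with APOC2 (all 10 with APOC2 only). By particle, 3 core and 5 regulatory particle genes were occupied with APOC2, and 0 of either particle with Vec. Over all coding genes the shares were 8.87% with APOC2 and 1.52% with Vec. With transcription starts only, 0 core particle genes were occupied with Vec (6.22% of coding genes with an entry), since PSMA7 has no entry. Without tissue-restricted and interferon-induced subunits, 3 of 14 core particle genes were occupied with APOC2, against 24.7% of all coding genes. An alternative chosen after seeing the data kept only peaks near no other gene. With it, 3 members were occupied with Vec (2.99% of all coding genes), 14 with APOC2 (12.4%), 11 with APOC2 only and 3 in both. Of the core particle, 3 genes were then occupied with APOC2 and 0 with Vec. The median log2 ratio at shared members, 0.516, became 0.072 with a fold enrichment of at least 5, 0.904 with equal peak numbers and 0.247 with raw pileup. It was 0.127 with a limit of 3 kb, with starts only, without chromosomes 8 and 9, or with peaks near no other gene. No median could be computed where peaks had to overlap a gene end.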
